A study of Mus musculus with 58 samples.

Results

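The proteasome is the protease that removes ubiquitin-tagged proteins, and the genes examined here encode its subunits, activators and assembly factors in mouse quadriceps muscle. Members were the genes whose single annotated symbol starts with Psma, Psmb, Psmc, Psmd, Psme, Psmf or Psmg, which gave 49 of the 18193 genes named on the arrays. Psmc3ip and Psme3ip1 share the prefix but encode proteins named for binding a proteasome protein, so they were read apart from the subunits. Psme2 was no member, because its probe set carries a second symbol, Psme2b.

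The mRNA of male mice was measured on Affymetrix expression arrays in 3 separate experiments. Experiment 1 held 6 FVB wild-type mice, 6 CUGexp transgenic mice of line 20b and 6 of line 41, all on the FVB background and 6 months old. Experiment 2 held 3 Clcn1-null mice, which are myotonic, and 3 wild-type mice of the BALB background strain, aged 3 months. Experiment 3 held 5 Mbnl1-null mice and 5 FVB wild-type mice, aged 3 months. As background, CUGexp lines with these names carry an expanded CUG repeat in a human skeletal actin transgene expressed in muscle fibres, and both null groups carry constitutive losses, so that every cell type of the muscle lacks the gene. The labels name no agent for any group. The 2 transgenic lines were compared with the same wild-type mice, so their results are not independent. P-values set the difference of group means against the spread between mice within groups. In experiment 1 that spread was estimated over all 18 mice, so leaving out a mouse can also move calls between groups it is not in.

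The constitutive proteasome has a barrel-shaped 20S core and a 19S cap at one or both ends. The core stacks rings of alpha subunits (Psma) and beta subunits (Psmb), of which Psmb5, Psmb6 and Psmb7 are the peptide-cutting ones. The cap has ATPases (Psmc), which unfold the substrate, and further base and lid subunits (Psmd), which bind and strip off ubiquitin. Interferon makes cells replace the cutting subunits with Psmb8, Psmb9 and Psmb10 and adds the activator built of Psme1 and Psme2, a form called the immunoproteasome that generates peptides for antigen presentation. In muscle the proteasome degrades much of the contractile protein that is lost in wasting.

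The genes that carry most of the findings below are Psmd4, Psmd5, Psme1 and Psmb8. They lie on chromosome 3 (chr3:95032688-95042614), chromosome 2 (chr2:34852087-34870965), chromosome 14 (chr14:55578494-55581527) and chromosome 17 (chr17:34198195-34201454) of the RefSeq annotation of GRCm38.p6. The 250 bases before the start of Psmd4, Psmd5 and Psme1 are shown because these members were called. Binding of proteasome or interferon regulators to them was not measured. The starts are those of the RefSeq promoter table, and that of Psmd5 lies 3 bases inside the end of its gene span. The sequences are from RefSeq, read 5′ to 3′ on the strand of the gene, and capitals mark matches on either strand to 3 short motifs.
Psmd4, minus strand, chr3:95042615-95042864: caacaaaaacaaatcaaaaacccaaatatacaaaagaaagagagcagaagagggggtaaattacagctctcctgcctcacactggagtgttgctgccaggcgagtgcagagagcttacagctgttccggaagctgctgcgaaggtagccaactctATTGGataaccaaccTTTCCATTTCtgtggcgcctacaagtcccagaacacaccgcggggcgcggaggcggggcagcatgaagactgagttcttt
Psmd5, minus strand, chr2:34870963-34871212: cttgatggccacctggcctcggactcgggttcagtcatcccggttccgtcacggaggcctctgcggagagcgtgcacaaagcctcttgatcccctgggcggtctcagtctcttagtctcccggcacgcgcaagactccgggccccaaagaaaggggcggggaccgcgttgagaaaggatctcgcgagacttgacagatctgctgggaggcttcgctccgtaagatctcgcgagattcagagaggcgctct
Psme1, plus strand, chr14:55578244-55578493: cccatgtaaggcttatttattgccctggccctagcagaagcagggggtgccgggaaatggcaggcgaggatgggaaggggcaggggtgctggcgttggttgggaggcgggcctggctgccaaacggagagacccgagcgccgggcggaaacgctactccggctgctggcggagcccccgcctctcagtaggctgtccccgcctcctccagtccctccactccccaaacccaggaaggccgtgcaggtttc

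The motifs were the core of the antioxidant response element that NRF1, the product of Nfe2l1, recognises (TGACNNNGC), the core of the interferon response element (GAAA, any 2 bases, GAAA) and the CCAAT box (CCAAT). They were searched on both strands from 250 bases before to 50 after the start, and matches to different motifs did not exclude each other. The antioxidant response core was in 12.4% of all 32851 promoters and in 6 of the 41 members with a promoter in the table, namely Psmb5, Psmb6, Psmc6, Psmd12, Psmd9 and Psme4. None of the 3 genes shown above held it. The interferon response core was in 3.44% of all promoters and in 5 of the 41 members, among them Psmd4 and Psme1. In Psme1 it began 10 bases after the start, in the short stretch agctgtgcTTTCGCTTTCccttcccg at chr14:55578495-55578520, where capitals mark the match. CCAAT was in 37.4% of all promoters and in 16 of the 41 members. A match is a string of letters and not a shown binding site.

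Of the 49 members, 45 were bright enough to be tested in experiment 1, 47 in experiment 2 and 45 in experiment 3, where a gene needed an intensity of 32 (a log2 value of 5) on as many mice as the smallest group had. Psma8 and Psmb11, the alpha and beta subunits known from testis and thymus, stayed below this in all 3 experiments. Psmg4 was tested only in experiment 2. Psmb9 was also tested only there, since in experiment 1 a single wild-type mouse reached the filter, at a log2 intensity of 6.15, and in experiment 3 the highest mouse was at 3.10. A gene was called when its Benjamini-Hochberg adjusted p from limma was under 0.05 over all genes tested in the experiment. The median within-group SD of a member was 0.121, 0.193 and 0.128 on the log2 scale in experiments 1, 2 and 3, against 0.183, 0.248 and 0.203 over all genes tested.

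The labels were checked against the arrays first. All 10 skeletal muscle markers reached an intensity of 32 in every group, and Acta1, the skeletal actin, was called in no comparison. Clcn1 was lower in Clcn1-null mice by a log2 difference of -1.42 (SE 0.27), and Mbnl1 was lower in Mbnl1-null mice by -0.73 (SE 0.06). No 2 arrays were identical. Wild-type mice 1 and 2 of experiment 1 were known from earlier results of these data to stand apart, so counts are also given without them.

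Of the 45 members tested in line 20b, 8 rose and 4 fell. That is 26.7% of the members, against 19.5% of all 13036 genes tested, of which 9.1% rose and 10.4% fell. In line 41, 6 members rose and 2 fell, which is 17.8% against 9.17% of all genes, of which 3.94% rose and 5.23% fell. In Mbnl1-null mice 3 rose and 2 fell, or 11.1% against 16.2% of 9021 genes, of which 8.06% rose and 8.18% fell. Among 47 members in Clcn1-null mice 1 fell and 0 rose, or 2.13% against 5.4% of 13122 genes, of which 2.2% rose and 3.2% fell. Without further scaling, the share of members called was thus above that of all genes in both CUGexp lines and below it in both null groups. In Clcn1-null mice this rests on 1 call and depends on the scaling. Quantile normalisation and a median shift each gave 4 members lower there, beside 457 and 555 of the 13122 genes. These shares are descriptions and were not tested. The median log2 change of the tested members was 0.077 in line 20b, 0.076 in line 41, 0.033 in Mbnl1-null and -0.195 in Clcn1-null mice, beside medians over all genes tested of -0.012, -0.014, -0.005 and 0.018. The counts moved with single mice and with the scaling. In line 20b the number that rose was 5 without line 20b mouse 1, 4 or 5 or wild-type mouse 2, and 3 without wild-type mice 1 and 2, while the number that fell was 2 without line 20b mouse 1 or wild-type mouse 6. With quantile normalisation 13 rose and 3 fell in line 20b, and with a median shift 17 rose and 2 fell. In line 41 the number that rose was 3 without line 41 mouse 1, 2 or 4 or wild-type mouse 1, 4 or 6, and with a median shift 7 rose and 0 fell. The number that fell in line 41 was 1 without line 41 mouse 1 or 3, line 20b mouse 1, 2, 4, 5 or 6 or wild-type mouse 1, 2 or 4, and 0 without line 41 mouse 5 or 6 or wild-type mouse 5 or 6. In Mbnl1-null mice the number that fell was 1 without Mbnl1-null mouse 2, 3 or 5 or wild-type mouse 1, 2, 3 or 5, and with a median shift 4 rose and 1 fell.

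Groups that did not overlap were counted as well. In line 20b all mice lay above all wild-type mice for 2 members and below for 1, where 10.6% of all genes did not overlap, 5.22% above and 5.4% below. In line 41 it was 3 above and 0 below, where 4.24% did not overlap, 2.16% above and 2.09% below. In Mbnl1-null mice it was 4 above and 3 below, where 14.3% did not overlap, 6.43% above and 7.9% below. In Clcn1-null mice it was 1 above and 16 below, where 30.8% did not overlap, 14.4% above and 16.5% below. On the low side in Clcn1-null mice, 16 of 47 members compare with the 16.5% of all genes. Between the lines 0 members did not overlap, where 3.9% of all genes did not, 2.4% with line 20b above and 1.5% below.

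**Figure D1:**
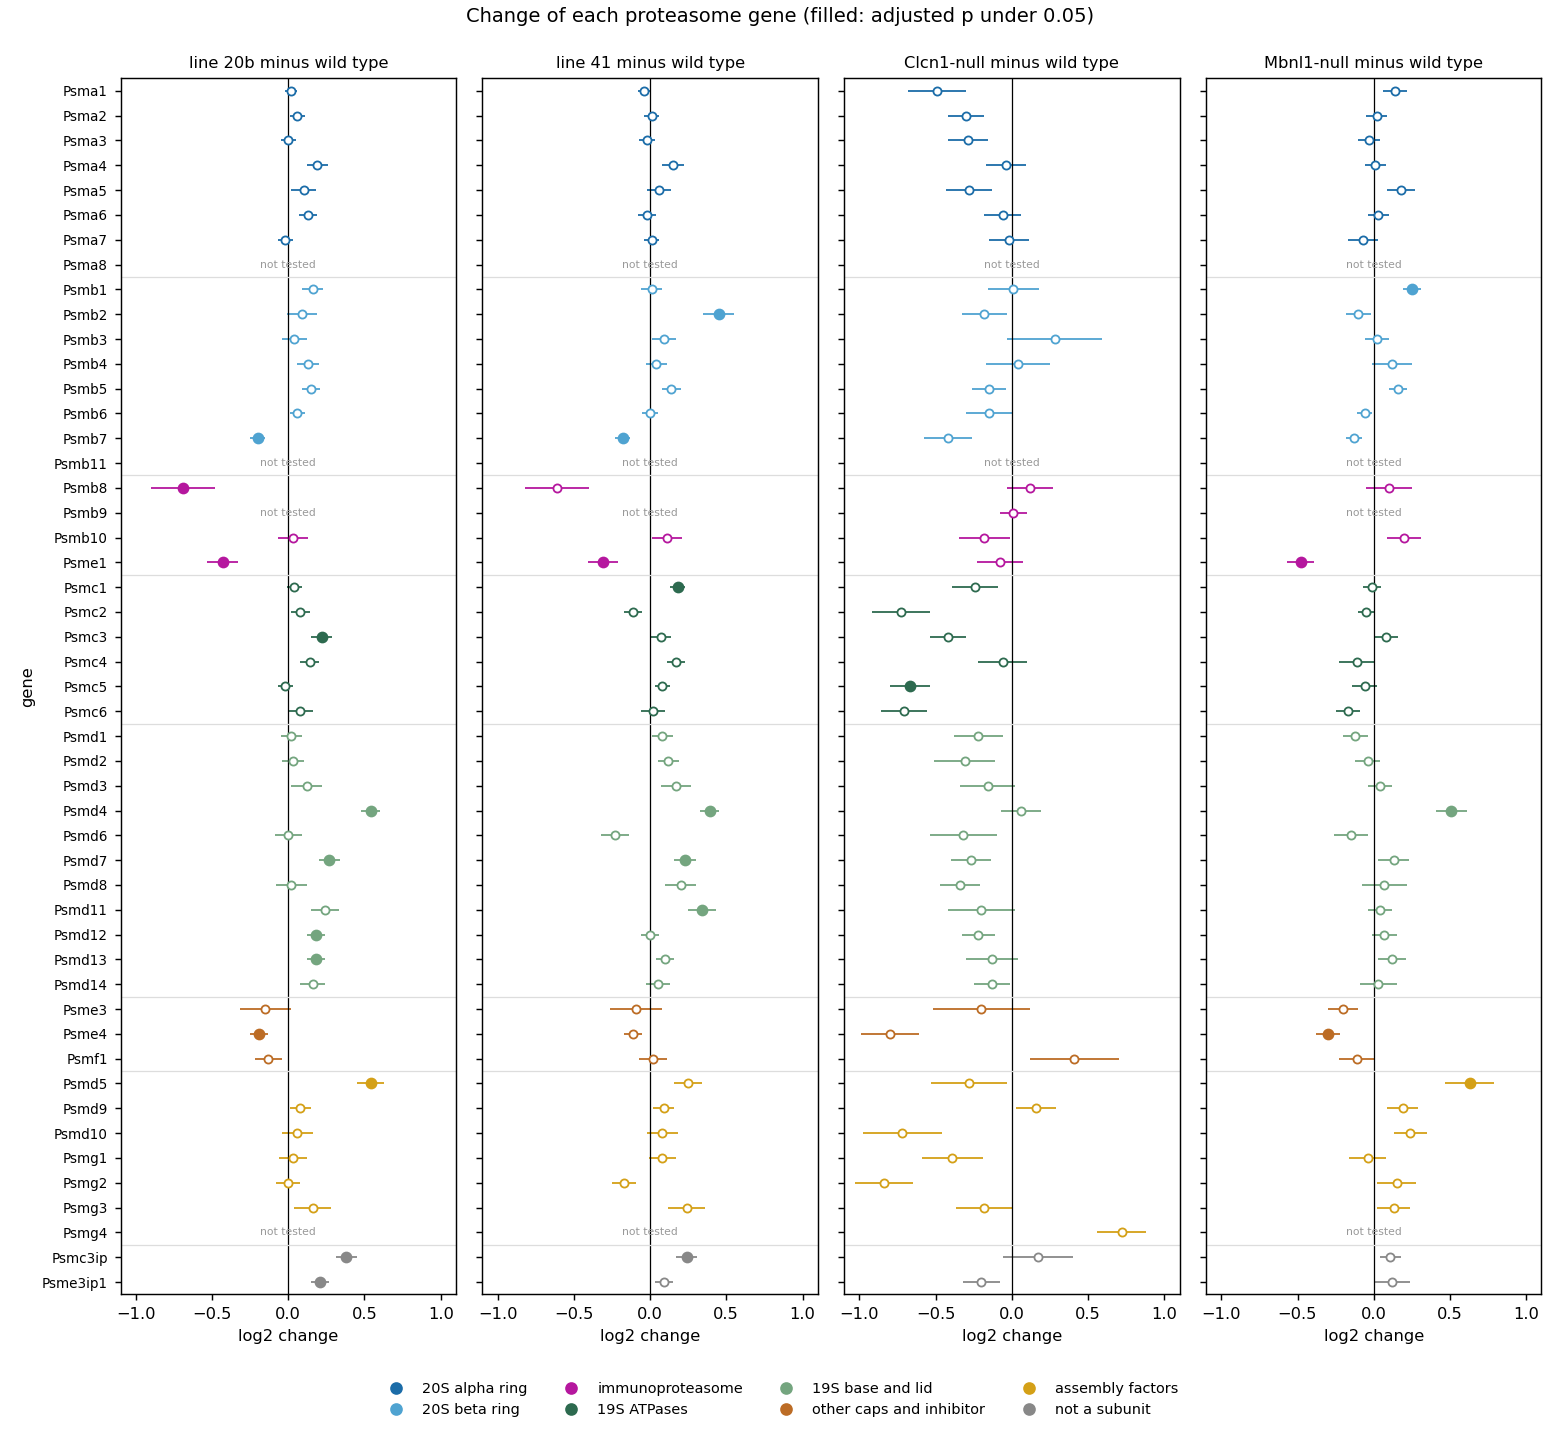
Log2 change (x axis) of each of the 49 members (y axis, grouped and coloured by class) in the 4 comparisons with wild type, with the standard error as bars. Filled points have an adjusted p under 0.05, with Psmd4 to the right of 0 in both CUGexp lines and in Mbnl1-null mice.

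Psmd4, the cap subunit that binds ubiquitin chains, was the member with the smallest adjusted p in both CUGexp lines and in Mbnl1-null mice. Its log2 intensity was 12.69 to 13.02 (median 12.86) in line 20b, 12.55 to 12.78 (median 12.74) in line 41 and 12.13 to 12.46 (median 12.32) in their wild-type mice. Neither line overlapped the wild type. The rise was 0.54 (SE 0.06, n = 6 and 6, adjusted p = 7.02e-06 by limma), or 1.46-fold, in line 20b, and 0.39 (SE 0.06, adjusted p = 7.59e-04), or 1.31-fold, in line 41. The lines themselves differed by 0.15, which was not called. The Mbnl1-null mice were at 12.73, 12.44, 12.56, 12.34 and 12.72 and their wild type at 12.28, 12.06, 11.93, 11.94 and 12.05. Again all mutant mice lay above all wild-type mice, by 0.51 on average (SE 0.10, n = 5 and 5, adjusted p = 0.00451 by limma), or 1.42-fold. The Clcn1-null mice were at 12.19, 12.27 and 12.45, inside and just above their wild type at 12.21, 12.19 and 12.33, and the difference of 0.06 (95% interval -0.25 to 0.37) was not called.

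Psmd4 has 3 probe sets, of which the brightest stood for it. The next brightest was also called, at 0.46 in line 20b, 0.41 in line 41 and 0.50 in Mbnl1-null mice. The dimmest was not, at -0.06, 0.06 and 0.04. So 2 of 3 readings of the gene rose and 1 did not.

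The 19S base and lid, Psmd4 included, had calls in one direction in the CUGexp lines. In line 20b 4 of its 11 genes rose, 0 fell, where 19.5% of all genes were called, and 11 of 11 had a positive change, with a median of 0.162. In line 41 3 rose, 0 fell, where 9.17% of all genes were called, and 9 of 11 were positive, with a median of 0.118. Without wild-type mice 1 and 2 of experiment 1 only Psmd4 of these 11 genes kept its call in either line. Over all genes tested 47.2% were positive in line 20b and 46.2% in line 41. In Mbnl1-null mice only Psmd4 of the 11 was called, and the median was 0.043.

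Psmd7, the lid partner of the deubiquitinase Psmd14, rose by 0.27 (SE 0.07, adjusted p = 0.0105 by limma) in line 20b and 0.23 (SE 0.07, adjusted p = 0.0429) in line 41. Its log2 intensity was 13.76 to 14.05 in line 20b, 13.72 to 14.13 in line 41 and 13.53 to 13.82 in the wild type, so the groups overlapped. Both calls were lost without wild-type mice 1 and 2, at 0.21 and 0.18, and 11 of the 18 mice of experiment 1 lost the line 41 call when left out singly. Psmd11, a lid subunit that braces the cap on the core, rose by 0.34 (SE 0.09, adjusted p = 0.0184 by limma) in line 41, from a wild-type range of 13.31 to 13.65 to 13.52 to 13.97, and its 0.24 in line 20b had an adjusted p of 0.0634. The line 41 call was lost without wild-type mice 1 and 2, at 0.27, and no other probe set of Psmd11 was called in line 41, with the next brightest reading -0.01. The lid subunits Psmd12 and Psmd13 each rose by 0.18 (SE 0.06) in line 20b, with adjusted p of 0.0335 and 0.0401 by limma, and each call was lost without any of 9 single mice and without wild-type mice 1 and 2. A second probe set of Psmd13 rose by 0.28 in line 20b and 0.24 in line 41, while its 430B set was at -0.06 in line 20b and fell by 0.88 in line 41 (adjusted p = 0.038 over all probe sets), with overlap. That 430B set was dim and near the filter, with mean log2 intensities of 4.97 in line 41 and 5.86 in the wild type. The set that stood for the gene was at 12.22 and 12.12.

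Of the 6 ATPases, Psmc3 rose in line 20b by 0.22 (SE 0.07, adjusted p = 0.0393 by limma) and Psmc1 rose in line 41 by 0.18 (SE 0.05, adjusted p = 0.0374). Psmc1 lay at 13.44 to 13.58 in line 41, above the 13.22 to 13.41 of its wild type without overlap. Psmc3 overlapped, at 14.13 to 14.44 against 13.92 to 14.28. Without wild-type mice 1 and 2 neither call held, at 0.19 for Psmc3 and 0.18 for Psmc1, and any of 8 and 9 single mice ended them when left out. In Mbnl1-null mice no ATPase was called, with changes from -0.17 to 0.08.

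Psmc6, an ATPase, was read differently by its 3 probe sets. The brightest, which stood for it, differed from wild type by 0.08 in line 20b, 0.02 in line 41 and -0.17 in Mbnl1-null mice, none of them called. The middle one fell by 0.39 in line 20b (adjusted p = 0.0178 by limma over all probe sets) and by 0.63 in Mbnl1-null mice (adjusted p = 0.0252), and its change in line 41 was -0.34 (adjusted p = 0.0598). The dimmest fell by 0.68 in line 20b (adjusted p = 0.0182) and by 0.63 in line 41 (adjusted p = 0.0461), and was at -0.69 (adjusted p = 0.0697) in Mbnl1-null mice. In Clcn1-null mice the set that stood for the gene was at -0.71 and the others at -1.02 and -2.22, none of them called. No single value for Psmc6 describes all 3 readings.

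**Figure D2:**
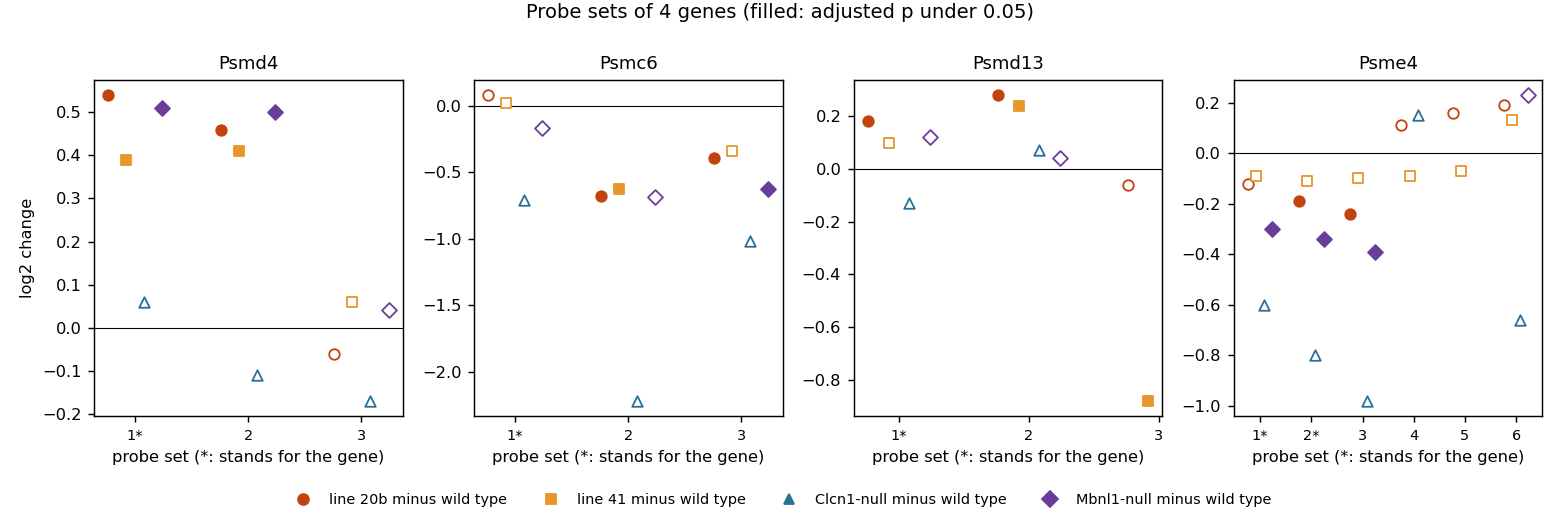
Log2 change (y axis) read by each tested probe set (x axis, the one that stands for the gene marked with a star) of Psmd4, Psmc6, Psmd13 and Psme4, by comparison with wild type. Filled symbols have an adjusted p under 0.05 over all probe sets, and the readings of one gene differ in size and in some cases in sign. Psme4 has 2 stars because the brightest set differed between array types.

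Over all genes tested, 19.5%, 9.17%, 16.2% and 5.4% were called in line 20b, line 41, Mbnl1-null and Clcn1-null mice. By the probe set that stood for each gene, the 20S core had 1, 2, 1 and 0 calls in that order. That is 7.14%, 14.3%, 7.14% and 0% of its 14 tested genes. None of its 7 tested alpha subunits was called by limma in any comparison with wild type, and 2, 1, 2 and 0 of them had an unadjusted p under 0.05 in line 20b, line 41, Clcn1-null and Mbnl1-null mice. Their changes ran from -0.02 to 0.19 in the first of these, -0.04 to 0.15 in the next, then -0.49 to -0.02 and -0.07 to 0.18. Among the beta subunits, Psmb7, the cutting subunit with trypsin-like specificity, fell in both lines. It was at 13.71 to 13.89 (median 13.74) in line 20b, 13.65 to 13.84 (median 13.79) in line 41 and 13.79 to 14.10 (median 13.98) in the wild type. The lines thus sat at the lower edge of the wild-type range. The fall was 0.20 in line 20b (SE 0.05, adjusted p = 0.0084 by limma) and 0.18 in line 41 (SE 0.05, adjusted p = 0.0299), and a median shift ended both calls. The line 41 call was also lost without line 41 mouse 5 or 6 or wild-type mouse 4, 5 or 6. The other cutting subunits were not called: Psmb5 was at 0.15 and 0.14 and Psmb6 at 0.06 and 0.00 in lines 20b and 41.

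Psmb2, a beta subunit without cutting activity, rose in line 41 and not in line 20b. Line 41 lay at 11.11 to 11.63 (median 11.23), above all wild-type mice at 10.65 to 11.02 (median 10.89), while line 20b lay at 10.72 to 11.22 (median 10.95). The rise in line 41 was 0.45 (SE 0.10, adjusted p = 0.00746 by limma), or 1.37-fold, and the change in line 20b was 0.09 (adjusted p = 0.608). The difference of the lines was -0.36, line 20b minus line 41, with an adjusted p of 0.0349. It was 1 of 2 members called between the lines, where 4.44% of the members and 5.98% of all genes were called, 3.54% with line 20b higher and 2.44% with it lower. The call between the lines was lost without any of 8 single mice.

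Psmb1, another beta subunit of the core, was called in Mbnl1-null mice. The mutants were at 12.28, 12.16, 12.29, 12.13 and 12.21 and the wild type at 11.99, 11.92, 11.88, 11.97 and 12.06, with no overlap. Its rise of 0.25 (SE 0.06, adjusted p = 0.0159 by limma) was 1.19-fold. Psmb5 did not overlap either, at 0.16 (adjusted p = 0.0883), and Psmb6 and Psmb7 were at -0.06 and -0.13, not called. Psmb4, a further beta subunit, was read apart by its 2 probe sets. The brighter, which stood for it, was at 0.13 in line 20b, 0.04 in line 41 and 0.12 in Mbnl1-null mice, not called. The dimmer rose by 0.26 in line 20b (adjusted p = 3.98e-04 by limma over all probe sets) and by 0.31 in Mbnl1-null mice (adjusted p = 0.00792), both without overlap, and was at 0.14 in line 41 (adjusted p = 0.0547).

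The calls among the immunoproteasome genes in the CUGexp lines were all falls. Of the 3 tested, Psme1 and Psmb8 fell in line 20b, and Psme1 fell in line 41, where 10.4% and 5.23% of all genes fell. Only the Psme1 call in line 20b held without wild-type mice 1 and 2 of experiment 1. Psmb10, the inducible counterpart of Psmb7, was at 0.03 in line 20b and 0.11 in line 41 and was not called. In bulk muscle, fewer cells of a type and less RNA per cell cannot be told apart.

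Psme1, a subunit of the ring that opens the core for peptide release, lay at 12.39 to 12.73 (median 12.71) in line 20b and 12.77 to 13.27 (median 13.05) in the wild type. The groups did not overlap, and the fall was 0.43 (SE 0.10, n = 6 and 6, adjusted p = 0.00344 by limma). Line 41, at 12.41 to 12.94 (median 12.77), overlapped the wild type. Its fall of 0.31 (SE 0.10, adjusted p = 0.0494) was lost without any of 14 single mice and without wild-type mice 1 and 2, at -0.27. In Mbnl1-null mice Psme1 was at 10.56, 10.45, 10.81, 10.91 and 10.53, below all wild-type mice at 11.08, 11.16, 11.09, 11.12 and 11.22. That fall was 0.48 (SE 0.09, n = 5 and 5, adjusted p = 0.00528 by limma), to 0.716 of the wild-type level. The calls in line 20b and in Mbnl1-null mice held without each single mouse of their experiment. The line 20b call also held without wild-type mice 1 and 2 of experiment 1, at -0.40 (adjusted p = 0.0186 by limma). In Clcn1-null mice Psme1 was at 13.59, 14.07 and 13.74 beside 13.91, 13.75 and 13.97 in wild type, a difference of -0.08 (95% interval -0.45 to 0.30). Psme1 has a single probe set.

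Psmb8, the inducible counterpart of Psmb5, was spread widely among the wild-type mice of experiment 1. Their log2 intensities were 6.71 to 8.33 (median 7.15), with mouse 1 at 8.33, mouse 6 at 7.80 and mouse 2 at 7.38. The mice of line 20b were at 6.34 to 6.71 (median 6.70) and those of line 41 at 6.57 to 6.92 (median 6.69), close to the 3 lowest wild-type mice. The fall was 0.69 in line 20b (SE 0.21, adjusted p = 0.0273 by limma), and the value in line 41 was -0.61 (adjusted p = 0.081). Without wild-type mice 1 and 2 the line 20b value was -0.42 (adjusted p = 0.108), and the call was also lost without wild-type mouse 6 or line 20b mouse 1. Psmb9, the inducible counterpart of Psmb6, reached 6.15 in wild-type mouse 6 and lay between 3.98 and 4.40 in the other mice of experiment 1.

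In Mbnl1-null mice Psmb8 was at 7.36, 7.27, 7.02, 7.12 and 6.52 and in their wild type at 7.03, 7.07, 6.90, 7.02 and 6.74, a difference of 0.10 that was not called. Psmb10 was at 0.20 (adjusted p = 0.222) there. In Clcn1-null mice the 4 immunoproteasome genes were tested and none was called, with Psmb8 at 0.12, Psmb9 at 0.01, Psmb10 at -0.18 and Psme1 at -0.08. So Psme1 fell in Mbnl1-null mice while no inducible cutting subunit was called.

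**Figure D3:**
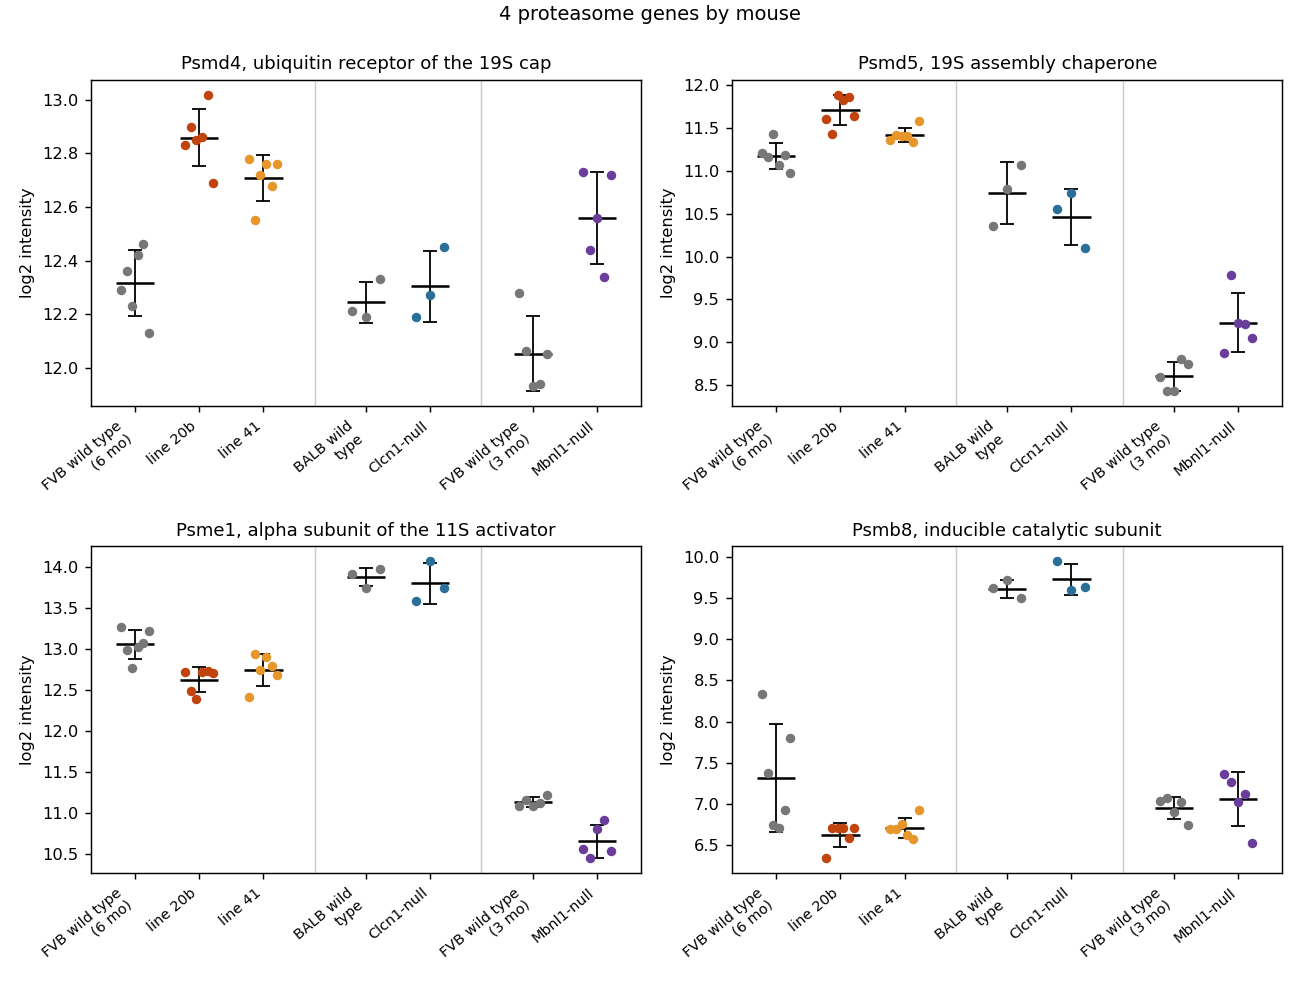
Log2 intensity (y axis) of Psmd4, Psmd5, Psme1 and Psmb8 in every mouse of the 7 groups (x axis, vertical lines part the 3 experiments), with bars for mean and SD. Levels compare only within an experiment, and Psmb8 shows 3 wild-type mice of experiment 1 above all mice of lines 20b and 41.

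Other genes of antigen presentation and of the interferon response were read beside these. Of 10 tested antigen presentation genes, 5 fell and 1 rose in line 20b, with a median of -0.328. Of all genes tested there, 10.4% fell and 9.1% rose. The class I heavy chains H2-K1 and H2-D1 and their light chain B2m fell by 0.78, 0.75 and 0.85, with adjusted p of 0.00153, 0.00167 and 0.00158 by limma, and each lay below the wild type without overlap. B2m was 13.57 to 13.95 (median 13.90) in line 20b and 14.04 to 15.24 (median 14.69) in the wild type. Line 41 had 1 of the 10 higher and 1 lower, with a median of -0.241, where 3.94% of all genes rose and 5.23% fell. There B2m fell by 0.71 (adjusted p = 0.0138) and H2-K1 and H2-D1 were at -0.32 and -0.34, not called. The gene that rose in both lines was Canx, by 0.19 in line 20b (adjusted p = 0.0212 by limma) and 0.39 in line 41 (adjusted p = 2.56e-04). Without wild-type mice 1 and 2 its call held in line 41 and was lost in line 20b. The summed intensity of the antigen presentation list ran from 89200 to 101000 in line 20b, 103000 to 124000 in line 41 and 105000 to 150000 in the wild type, where mice 1, 2 and 6 were the highest, at 150000, 150000 and 135000. These are the same 3 wild-type mice in which Psmb8 was highest. Without wild-type mice 1 and 2 the falls of H2-K1, H2-D1 and B2m in line 20b were 0.57, 0.53 and 0.60 and still called, while B2m in line 41 was at -0.45 (adjusted p = 0.0822).

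Of 13 tested interferon response genes, 0 rose in either line, 2 fell in line 20b and 1 in line 41. Of all genes tested, 10.4% fell in line 20b and 5.23% in line 41. Gbp7, an interferon-induced GTPase, fell by 1.38 (adjusted p = 2.16e-05 by limma) in line 20b and 0.88 (adjusted p = 0.00431) in line 41. In Mbnl1-null mice Ifitm3, a membrane protein that blocks virus entry, rose by 0.71 (adjusted p = 0.00328), from 11.72 to 12.15 in the wild type to 12.39 to 13.09. Gbp3 was at 1.72 but passed the filter only through the mutant mice, at 5.81 to 6.74 against 4.41 to 4.94 in the wild type, so its call is no support. Ifit2 was at 0.99, with 5.14 to 6.31 against at most 5.10 in the wild type, near the filter. Only 9 of the 18 measured genes of the list were tested there, so no count of them is read. The summed intensity of all 18 was 9320 to 12600 in Mbnl1-null and 5990 to 8420 in wild-type mice. Bright genes such as Ifitm3 weigh most in this sum, and 9 of the 18 were under an intensity of 32 in all wild-type mice. The sum is therefore not read as a rise of the whole list. None of 8 antigen presentation genes was called in Mbnl1-null mice, where 16.2% of all genes were, with 1 at an unadjusted p under 0.05. All 8 were positive, with a median of 0.173. The calls of Irf9, Xaf1 and Gbp2, which rose, and of Gbp7, which fell, were lost without any of 7 or 8 single mice. In Clcn1-null mice none of 8 antigen presentation and 16 interferon response genes was called by limma, where 5.4% of all genes were. Of them, 2 and 3 were at an unadjusted p under 0.05.

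Markers of other cell types moved with some of these groups. Over all genes tested, 19.5% were called in line 20b, 9.17% in line 41 and 16.2% in Mbnl1-null mice. In line 20b 7 of 8 endothelial markers fell, with summed intensities of 8470 to 10900 against 13000 to 17000 in the wild type, and so did 4 of 4 tested adipocyte markers, at 23600 to 29600 against 31400 to 97600. The highest adipocyte sums were those of wild-type mice 1 and 2, at 94100 and 97600, while the other wild-type mice were at 31400 to 46200. Marker calls were not read without these mice. In line 41 4 of 8 endothelial markers fell, at 8580 to 11900, and none of the 4 tested adipocyte markers was called. Leukocyte markers summed to 9190 to 13800 in line 20b, 11900 to 19000 in line 41 and 8410 to 13600 in the wild type, with 0 of 9 called in line 20b (2 at an unadjusted p under 0.05) and Cd68 alone called, higher by 1.46, in line 41. Cd79a, Itgam and Ptprc were under an intensity of 32 in all mice of these 3 groups, and Aif1, Cd3e, Cd79a and Itgam in all mice of experiment 3. In Mbnl1-null mice 3 of 7 leukocyte markers rose, with sums of 4990 to 9690 against 3540 to 6090, while 0 of 8 endothelial and 0 of 4 adipocyte markers were called. Cd52 was under an intensity of 32 in all wild-type mice of experiment 3, so it could reach the filter only through the mutant mice. The leukocyte count there is therefore a description and no support. The part of these cell types in the changes of Psme1, Psmb8 and the antigen presentation genes was not tested.

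**Figure D4:**
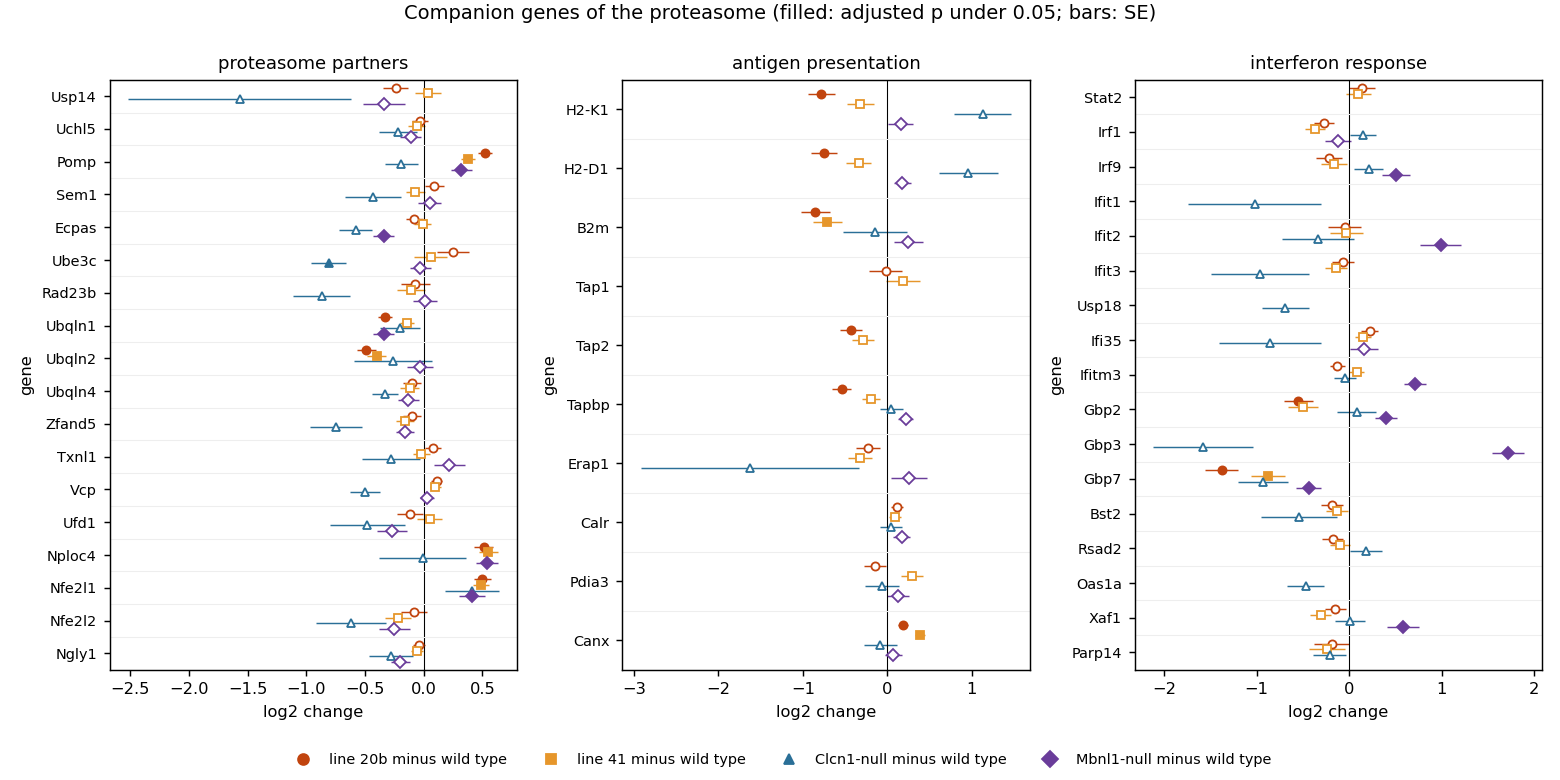
Log2 change (x axis) with standard error of the tested genes of 3 companion lists (y axis) in the 4 comparisons with wild type, where filled symbols have an adjusted p under 0.05. Pomp, Nploc4 and Nfe2l1 are filled to the right of 0 in lines 20b and 41 and in Mbnl1-null mice, and H2-K1, H2-D1 and B2m are filled to the left in line 20b.

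Psme4, a single-chain cap of the core, fell by 0.19 in line 20b (SE 0.06, adjusted p = 0.0474 by limma) and by 0.30 in Mbnl1-null mice (SE 0.08, adjusted p = 0.0316). The Mbnl1-null mice were at 13.12, 12.75, 13.01, 13.02 and 12.84 and their wild type at 13.45, 13.22, 13.21, 13.12 and 13.25, touching at 13.12. The line 20b call was lost without any of 10 single mice, and the Mbnl1-null call without any of 7 of its 10 mice. Both calls were also lost with a median shift. In Mbnl1-null mice 2 further probe sets of Psme4 were called, at -0.34 and -0.39. Psme3, the nuclear member of the Psme1 family, was at -0.15, -0.09, -0.20 and -0.20 in line 20b, line 41, Clcn1-null and Mbnl1-null mice, and Psmf1, an inhibitor of the core, at -0.13, 0.02, 0.41 and -0.11, with no call for the set that stood for either gene. Another set of Psme3, brighter in Clcn1-null mice and their wild type, fell there by 0.77 without overlap (adjusted p = 0.042 by limma over all probe sets). Another set of Psmf1 fell by 0.93 in line 20b without overlap (adjusted p = 5.18e-04) and by 0.87 in line 41 (adjusted p = 0.00246), and was at -0.77 in Clcn1-null and -0.57 in Mbnl1-null mice, not called.

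Among the assembly factors, Psmd5, a chaperone that holds the ATPase base before the cap is complete, rose in line 20b and in Mbnl1-null mice. Line 20b was at 11.43 to 11.89 (median 11.74), line 41 at 11.34 to 11.58 (median 11.41) and the wild type at 10.98 to 11.43 (median 11.18). Line 20b met the wild type only at 11.43, and the rise was 0.54 (SE 0.09, adjusted p = 1.71e-04 by limma), or 1.45-fold. The change in line 41 was 0.25 (adjusted p = 0.0787). The lines differed by 0.29, line 20b minus line 41, with an adjusted p of 0.0494, a call lost without any of 14 single mice and without wild-type mice 1 and 2, where the adjusted p was 0.0671. In experiment 3 the Mbnl1-null mice were at 8.88, 9.79, 9.22, 9.21 and 9.05 and their wild type at 8.59, 8.43, 8.43, 8.80 and 8.75, with no overlap. That rise was 0.63 (SE 0.16, n = 5 and 5, adjusted p = 0.0205 by limma), or 1.55-fold, and leaving out wild-type mouse 2 or 3 ended the call, with an adjusted p of up to 0.0542. In Clcn1-null mice Psmd5 was at -0.28 (95% interval -0.89 to 0.34), not called. Psmd5 has a single probe set.

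No other assembly factor was called against wild type. Psmd9 and Psmd10, the other cap chaperones, were at 0.08 and 0.06 in line 20b, 0.09 and 0.08 in line 41 and 0.19 and 0.24 in Mbnl1-null mice. Psmg1 and Psmg2, which pair to build the alpha ring, were at 0.03 and 0.00 in line 20b, 0.08 and -0.17 in line 41 and -0.04 and 0.15 in Mbnl1-null mice. Psmg3, partner of Psmg4 in a second such pair, was at 0.16, 0.24 and 0.13 in line 20b, line 41 and Mbnl1-null mice. Psmd5 was therefore the only chaperone of the cap to pass the test.

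Of the proteins that are named for a proteasome partner, Psmc3ip, a factor of meiotic recombination, rose by 0.38 (SE 0.07, adjusted p = 9.92e-04 by limma) in line 20b and 0.24 (SE 0.07, adjusted p = 0.0448) in line 41. Its values were 11.42 to 11.76 in line 20b, 11.39 to 11.66 in line 41 and 11.10 to 11.46 in the wild type. Its 430B probe set read 0.17 and 0.11, neither called, and the line 41 call was lost without any of 13 single mice. Psme3ip1, which binds Psme3, rose by 0.21 (SE 0.06, adjusted p = 0.012) in line 20b without overlap, at 11.65 to 11.86 against 11.37 to 11.61, and was not called without wild-type mice 1 and 2, at 0.17. Both count among the 8 members that rose in line 20b.

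The Clcn1-null mice had most proteasome genes lower, with a single call. Of the 47 members tested, 37 had a negative and 10 a positive change, where 52.3% of all genes tested had a positive one. Psmc5, an ATPase, was at 13.23, 13.19 and 12.90 in the mutants and 13.81, 13.79 and 13.72 in the wild type. It fell by 0.67 (SE 0.13, n = 3 and 3, adjusted p = 0.0405 by limma), to 0.629 of the wild-type level. The call was lost without each single mouse other than Clcn1-null mouse 3, and without that mouse 5 members fell. Without Clcn1-null mouse 1, 1 member rose.

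All 6 ATPases were negative in Clcn1-null mice, with a median of -0.544. Of these, 4 did not overlap the wild type, where 30.8% of all genes tested did not, 16.5% on the low side. Psmc2 was at -0.73 (SE 0.19, adjusted p = 0.0959 by limma), Psmc6 at -0.71 (SE 0.15, adjusted p = 0.0545) and Psmc3 at -0.42 (SE 0.12, adjusted p = 0.115). Psmc4 and Psmc1, at -0.06 and -0.24, overlapped it. Over the 19S cap 16 of 17 genes were negative and over the 20S core 11 of 14, with medians of -0.238 and -0.152. The mean of the cap genes of a mouse, as a log2 difference from the wild-type mean, was -0.387 to -0.228 in the mutants and -0.044 to 0.039 in the wild type. Psmg2 was at -0.84 (adjusted p = 0.0616), Psmd10 at -0.72 (adjusted p = 0.18) and Psme4 at -0.80 (adjusted p = 0.0678), while Psmg4, the alpha-ring factor, was at 0.72 (adjusted p = 0.0645), above the wild type in all 3 mice. Psmg1, Psmg3 and Psmd9 were at -0.39, -0.18 and 0.16. With 3 mice a group, differences of this size mostly missed the threshold, and the number of mice limits the precision.

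In the same Clcn1-null mice 4 of 4 tested adipocyte markers rose, with summed intensities of 103000 to 130000 against 42500 to 53000 in the wild type. Of all genes tested, 2.2% rose there. Leukocyte markers summed to 18600 to 26300 against 9960 to 13500, with Cd68 alone called, higher by 3.25, of 10 tested and Itgam under an intensity of 32 in all mice. None of 8 endothelial markers was called, with 0 at an unadjusted p under 0.05. The part of fat and macrophages in the lower proteasome values was not tested.

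**Figure D5:**
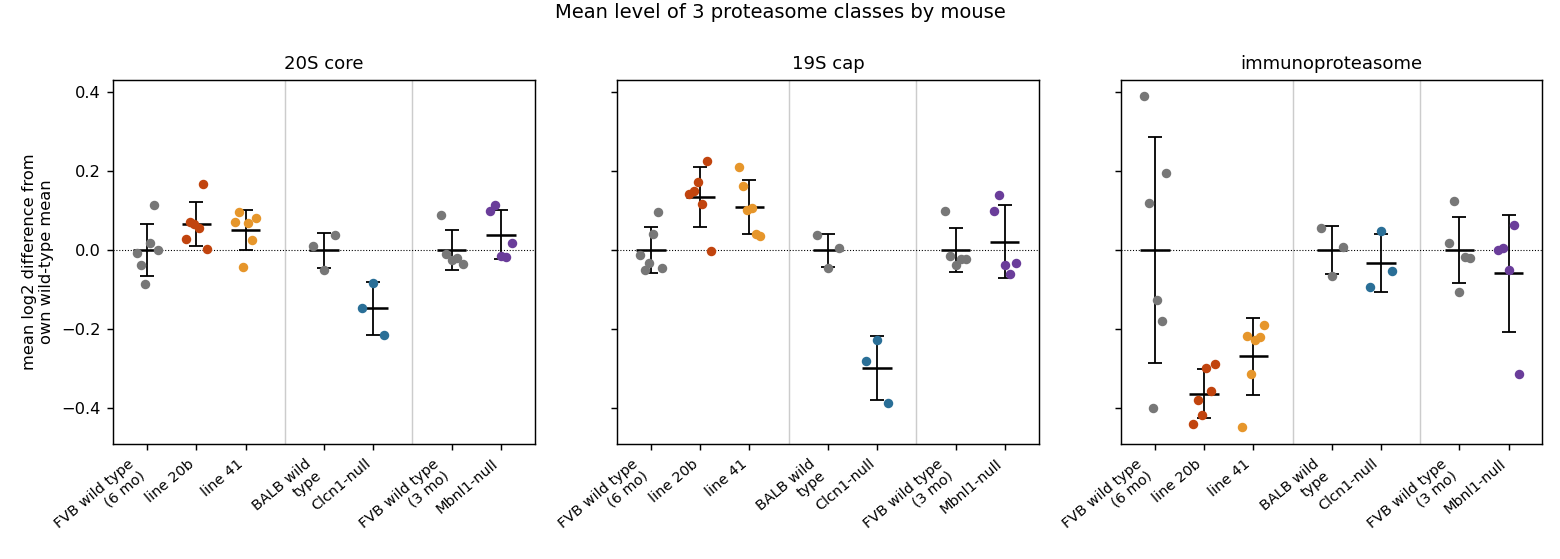
Mean log2 difference from the wild-type mean of the same experiment (y axis) over the tested genes of the 20S core, the 19S cap and the immunoproteasome, for every mouse of the 7 groups (x axis), with bars for mean and SD. The 19S cap is below 0 in all 3 Clcn1-null mice, and the immunoproteasome mean is below 0 in all mice of lines 20b and 41, beside a wide wild-type spread.

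Genes that work next to the proteasome were read from companion lists. Of 18 tested partners, 3 rose and 2 fell in line 20b and 3 rose and 1 fell in line 41, where 19.5% and 9.17% of all genes were called. In Clcn1-null mice 0 rose and 1 fell, where 5.4% of all genes were called. In Mbnl1-null mice 3 rose and 2 fell, where 16.2% were. The 3 that rose were Pomp, Nfe2l1 and Nploc4 each time. Their changes in the lines rest on the same wild-type mice.

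Pomp, the chaperone that completes the 20S core, lay at 13.96 to 14.25 (median 14.08) in line 20b, 13.90 to 14.03 (median 13.95) in line 41 and 13.44 to 13.69 (median 13.60) in the wild type. Both lines were above it without overlap, by 0.52 (SE 0.06, adjusted p = 2.91e-06 by limma) and 0.38 (SE 0.06, adjusted p = 3.73e-04). In Mbnl1-null mice Pomp rose by 0.32 (SE 0.09, adjusted p = 0.0276), with ranges of 11.83 to 12.27 and 11.62 to 11.83 that met at 11.83, and the call was lost without Mbnl1-null mouse 3 or wild-type mouse 2, 3, 4 or 5. In Clcn1-null mice it was at -0.19 (adjusted p = 0.484).

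Nfe2l1 encodes NRF1, the transcription factor that drives proteasome genes when proteasome activity falls short. It was at 13.51 to 13.68 in line 20b and 13.43 to 13.74 in line 41, above the 12.81 to 13.30 of the wild type. The rises were 0.50 (SE 0.07, adjusted p = 5.58e-05 by limma) and 0.49 (SE 0.07, adjusted p = 3.17e-04). In Mbnl1-null mice it rose by 0.41 (SE 0.11, adjusted p = 0.0242), at 11.04 to 11.58 against 10.74 to 11.01, a call lost without Mbnl1-null mouse 3 or wild-type mouse 2, 3 or 4. The 0.41 of Clcn1-null mice (SE 0.23) had an adjusted p of 0.359. Nploc4, a cofactor of the segregase Vcp, rose by 0.51 (SE 0.08, adjusted p = 1.62e-04), 0.55 (SE 0.08, adjusted p = 3.11e-04) and 0.54 (SE 0.09, adjusted p = 0.00191) in line 20b, line 41 and Mbnl1-null mice and was at -0.01 (SE 0.37) in Clcn1-null mice.

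The shuttle receptors that bring ubiquitinated proteins to the cap were lower where called. Ubqln2 fell by 0.49 (adjusted p = 1.98e-04 by limma) in line 20b and 0.40 (adjusted p = 0.00335) in line 41, and Ubqln1 fell by 0.33 (adjusted p = 9.25e-04) in line 20b and 0.34 (adjusted p = 0.0205) in Mbnl1-null mice. Both genes have another probe set that was tested and not called in line 20b, at -0.08 for Ubqln2 and -0.03 for Ubqln1. In Clcn1-null mice that set of Ubqln1 rose by 0.85. Ecpas, a proteasome-binding scaffold, fell by 0.34 (adjusted p = 0.0242) in Mbnl1-null mice, and Ube3c, a ligase bound to the proteasome, fell by 0.81 (adjusted p = 0.0353) in Clcn1-null mice, a call lost without each single mouse other than Clcn1-null mouse 3. Of the list of ubiquitin and its activating enzymes, Uba6 alone was measured, and it fell by 0.49 (adjusted p = 0.0154) in line 41.

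Of the muscle ubiquitin ligases and their adaptors, 18 were tested in experiments 1 and 2 and 16 in experiment 3. In line 20b 2 rose and 3 fell, in line 41 1 rose and 1 fell, in Clcn1-null mice 2 fell and in Mbnl1-null mice 2 rose and 4 fell. Over all genes tested the shares called were 19.5%, 9.17%, 5.4% and 16.2% in that order. Klhl41, a sarcomere-associated adaptor, rose by 0.99 (adjusted p = 5.88e-06 by limma) in line 20b, 1.26 (adjusted p = 1.54e-06) in line 41 and 0.83 (adjusted p = 8.2e-04) in Mbnl1-null mice. Fbxo31, a substrate receptor of a ligase, fell by 0.82 (adjusted p = 4.88e-06) in line 20b and 0.70 (adjusted p = 0.0129) in Mbnl1-null mice. Cblb, a ligase that acts on signalling receptors, rose by 0.45 (adjusted p = 0.0367) in line 20b and 0.85 (adjusted p = 0.00216) in Mbnl1-null mice, and the line 20b call was lost without any of 7 single mice and without a filter. In Clcn1-null mice the called genes were Asb2 at -1.07 (adjusted p = 0.0373) and Kbtbd13 at -1.11 (adjusted p = 0.0453). Both calls were lost without each single mouse other than Clcn1-null mouse 3 and without a filter, and that of Asb2 also with quantile normalisation, at -0.77. The autophagy genes, the other route of protein removal, had 1 called higher and 2 lower of 23 in line 20b, and 3 higher and 0 lower of 23 in line 41. They had 1 higher and 2 lower of 23 in Clcn1-null and 1 higher and 0 lower of 22 in Mbnl1-null mice. These counts stand beside the same shares of all genes.

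The members also varied together to a small degree among mice of a group. The mean pairwise correlation of their deviations from the group means was 0.14, 0.14 and 0.19 in experiments 1, 2 and 3, over 18, 6 and 10 mice, against 0.02, 0.01 and 0.10 over all genes tested. Between core and cap genes it was 0.19, 0.15 and 0.27. The genes of a mouse share an array and its scaling, so these are descriptions.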

How the data were processed

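Quadriceps RNA of each mouse was hybridised to Affymetrix Mouse 430A and 430B arrays in experiments 1 and 2 and to a single array type holding the probe sets of both in experiment 3. The values are linear intensity per probe set that the authors made with GCRMA, per the submitters' processing notes, with its version not given in the sources used here. GCRMA subtracts background by a sequence model and normalises between arrays. They were used as log2 values without further scaling. Of the probe sets, 20380 of 22626 on 430A, 14565 of 22411 on 430B and 34945 of 45037 on the combined array have a single symbol in the platform annotation. The brightest probe set by mean log2 stood for a gene. Members were named by a separate rule, which took those called against wild type, largest change first. It also took the immunoproteasome genes, the cutting subunits they replace, the activators, the inhibitor, the assembly factors and Psmc3ip whatever their test. From the companion lists it took up to 3 called genes per list and comparison.

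Genes with a log2 value of 5 or more on at least 6, 3 and 5 mice in experiments 1, 2 and 3 were tested with limma 3.58.1 in R 4.3.3 (lmFit, eBayes with a trend). The p-values were adjusted by the Benjamini-Hochberg method over all genes tested in an experiment, and intervals are at 95%. Experiments were fitted apart. Array medians ran from 398.4 to 437.8 and 298.5 to 317.3 on 430A, 30.2 to 34.39 and 22.35 to 27.91 on 430B (experiments 1 and 2), and 9.559 to 11.62 on the combined array, and the number of arrays limits the precision. The fit was tested on simulated data. Members and companion lists were chosen with earlier results of these data known.

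Each result was recomputed with a median shift or quantile normalisation of the arrays, with a log2 filter of 7 or none, with other choices of probe set, with eBayes without a trend, array weights, an adjusted p under 0.01, the replicate number as a block, each mouse left out, and wild-type mice 1 and 2 of experiment 1 left out. Promoters were matched by symbol to a RefSeq table of GRCm38.p6, which held 41 of the 49 members.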

Additional observations from a re-analysis of the deposited data

Results flagged for a closer look

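Of 111 groups of 4 or more mice tested by Dixon's criterion, 10 (9.01%) held a mouse far from the others, where chance alone flags about 5%. In line 20b, mouse 1 was lowest for Psmb8 at 6.34 (nearest mouse 6.59) and for Psmd10 at 10.79 (nearest 11.31). In the same line mouse 4 was highest for Psmb7 at 13.89 (nearest 13.77), mouse 6 lowest for Psmd12 at 14.48 (nearest 14.70) and mouse 5 highest for Psmg3 at 10.50 (nearest 10.13). Mouse 6 of line 41 stood apart for 3 genes, lowest for Psmb7 at 13.65 (nearest 13.77) and Psme3 at 11.58 (nearest 12.10) and highest for Psmd5 at 11.58 (nearest 11.42). Mbnl1-null mouse 5 was lowest for Psmf1 at 7.58 (nearest 7.82). FVB wild-type mouse 5 of experiment 1 was highest for Psmg1 at 11.39 (nearest 10.95).

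The effects of the 2 CUGexp lines differed by a test of the difference for Psmb2, at -0.36 (line 20b minus line 41, adjusted p = 0.0349 by limma), and for Psmd5, at 0.29 (adjusted p = 0.0494). These 2 were 4.44% of the 45 members tested, where 5.98% of all genes were called between the lines. The Psmb2 call was lost without any of 8 single mice, and the Psmd5 call without any of 14 of the 18.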

How the results depend on the processing

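Counts of members called are given as higher or lower than wild type unless the lines are compared. Leaving out 1 mouse gave 5 to 9 higher and 2 to 4 lower in line 20b, 3 to 6 and 0 to 3 in line 41, 0 to 2 and 0 to 1 for line 20b against line 41, 0 to 1 and 0 to 5 in Clcn1-null mice and 2 to 4 and 1 to 3 in Mbnl1-null mice. Quantile normalisation gave 13 higher in line 20b, 4 higher for line 20b against line 41 and 4 lower in Clcn1-null mice. The median shift gave 17 higher and 2 lower in line 20b, 0 lower in line 41, 4 higher for line 20b against line 41, 4 lower in Clcn1-null and 1 lower in Mbnl1-null mice. Over all genes, the share of calls that were higher went from 46.6% to 59% in line 20b and from 59.2% to 73% between the lines under the median shift. Without a filter 1 was lower in line 41, 0 higher between the lines, 0 lower in Clcn1-null and 1 lower in Mbnl1-null mice, and a filter at log2 7 gave 2 lower in Clcn1-null mice. The 430B probe sets gave 2 lower in line 20b, and reversed Psmd13 to -0.06 and Psme4 to 0.19 there. The 430B set of Psmd13 was near the filter, at a mean log2 intensity of 5.80 in line 20b. Without a trend 0 were lower in line 41, 0 higher between the lines and 1 lower in Mbnl1-null mice. Array weights gave 3 higher and 1 lower in line 41 and 2 higher and 10 lower in Clcn1-null mice. At an adjusted p under 0.01, 3 were higher and 2 lower in line 20b, 2 and 0 in line 41, 0 and 0 between the lines, 0 lower in Clcn1-null mice and 1 and 1 in Mbnl1-null mice. Without wild-type mice 1 and 2, 3 were higher in line 20b, 3 higher and 1 lower in line 41 and 0 higher between the lines. The cause of these moves was not tested. Whether replicate numbers pair the mice was not settled. The correlation of same-numbered mice ran from -0.19 to 0.43 over the comparisons, and from 0.02 to 0.43 in experiment 3. The best match was the same number for 3 of 5 Mbnl1-null mice and 1 of 3 Clcn1-null mice. It was so for 2 of 6 line 20b and 1 of 6 line 41 mice against wild type, and for 3 of 6 between the lines. With the replicate number as a block, 1 was lower in line 41, 2 higher between the lines and 0 lower in Clcn1-null mice. Of the called member values under the leave-one-out settings, 326 kept and 126 lost the call and 0 reversed, and under the other settings 255 kept it, 66 lost it and 2 reversed. The calls of Psmd4 in both lines and in Mbnl1-null mice held in each setting run.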
